A study of Mus musculus with 66 samples.

Results

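Rab GTPases are the largest branch of the Ras superfamily and give each membrane compartment of a cell its traffic identity. The members described here were every row of the deposited gene expression table whose symbol is Rab followed by a number and, where present, a letter, which gave 46 transcripts of 44 genes out of 9481 transcripts of 8978 genes. Rab6a and Rab11b were each listed as 2 transcripts. RefSeq lists 59 mouse symbols of this form, and the other 15, among them Rab12, Rab26, Rab37 and Rab3b, were not analysed here. The rule used no RNA values, but the authors had limited the table to transcripts whose proteins had been quantified.

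The libraries came from mouse small intestinal organoids of the Lgr5 GFP-DTR/+ line, in which the Lgr5 locus carries a GFP and diphtheria toxin receptor reporter in every culture. ENR was the standard medium with epidermal growth factor, Noggin and R-Spondin-1, a secreted enhancer of Wnt signalling. CV was ENR with CHIR99021 (3 µM), an inhibitor of GSK3 that activates Wnt signalling, and valproic acid (1 mM), an inhibitor of histone deacetylases, and the labels call it enriched for stem cells. EN was ENR without R-Spondin-1, which the labels call depleted of stem cells. CV organoids always received both compounds, so their effects cannot be told apart. By the authors' methods, CV organoids were also kept in their medium for longer than EN organoids. Between CV and EN, time in culture therefore cannot be told apart from the media. RNA-seq and ATAC-seq, an assay of open chromatin, had 4 libraries per culture, ChIPmentation of each histone mark was used in 3 libraries per culture, and ChIPmentation of the transcription factor Hnf4g had 1. Nothing in the labels ties the libraries to separate animals, so p-values measure the spread between these libraries, which may be technical.

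A Rab protein cycles between a GTP-bound form, held in a membrane by its lipid tail, and a GDP-bound form that is pulled back into the cytosol. Exchange factors switch it on, GTPase activating proteins switch it off, and the active form recruits effectors such as motors and tethers that move, dock or fuse vesicles. In intestinal epithelium, Rabs are best known for sending digestive enzymes and transporters to the apical brush border, for recycling membrane and junction proteins, and for the release of granules by goblet, Paneth and enteroendocrine cells.

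RNA-seq totals lay between 5630951 and 8859744 estimated reads per library, and every pair of replicates differed by more than sampling noise. At these depths 3 reads corresponded to between 0.361 and 0.642 counts per 1000000 (CPM), scaled between libraries with edgeR's trimmed mean of M values (TMM). A fold change between cultures depends on how the libraries are scaled. From CV to EN the median transcript moved by -0.08 on the log2 scale with TMM, by -0.49 with the ERCC spike-ins, by -0.34 in transcripts per 1000000 (TPM) and by 0.62 in the authors' mRNA copy numbers. Changes below are on the TMM scale unless another is named, and no share of a family within a library depends on that choice.

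Members were expressed over a wide range of levels. Averaged over the 3 cultures, Rab2a, which acts between the endoplasmic reticulum (ER) and the Golgi, had the highest level at 202 TPM, followed by Rab8a at 156 TPM, Rab1a at 120 TPM, Rab5c at 111 TPM and Rab1b at 104 TPM. Rab25, a Rab11 relative restricted to epithelia, was 6th at 103 TPM. The lowest levels were those of Rab6b at 0.418 TPM, Rab23 at 0.694 TPM and Rab3c at 1.95 TPM. Rab transcripts together made up 2099 ± 37.0 TPM in CV, 1553 ± 26.6 TPM in ENR and 2079 ± 50.8 TPM in EN (SD, n = 4), so that their summed level was lowest in ENR and the CV and EN ranges, 2045 to 2125 and 2007 to 2117, overlapped.

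From CV to EN, 33 of the 46 Rab transcripts passed an adjusted p of 0.01 in edgeR's quasi-likelihood test, beside a background of 76.4% of all 9288 transcripts tested, so the share of Rab transcripts that changed (71.7%) lay near that of the transcriptome. The call was for a rise in 22 and for a fall in 11, where 35.2% of all transcripts were called higher and 41.2% lower. The median Rab transcript changed by 0.22 against -0.08 for all transcripts. This split turned on the scaling, as did that of all transcripts. For Rabs it was 24 up and 9 down by DESeq2, 9 and 12 by the spike-ins, 15 and 16 in TPM, and 32 and 2 in copy numbers. For all 9288 transcripts it was 3401 up and 3537 down by DESeq2 and 1473 and 4292 by the spike-ins. In TPM it was 2263 and 4976, and in copy numbers 4418 and 1258. These totals are also the background for the splits of groups and lists from CV to EN below. The median Rab transcript stood above the median of all transcripts by 0.29 with TMM, a difference that DESeq2 and the spike-ins keep by construction, by 0.24 in TPM and by 0.35 in copy numbers. Of the 33 called transcripts, 21 had the same direction under all 5 scalings and 12 turned under at least 1.

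From ENR to EN the rise of Rab transcripts was broader. With TMM, 33 of 46 rose and 3 fell, beside 72.7% of all transcripts called, 35.5% higher and 37.2% lower. The median Rab transcript was 0.52 higher in EN, against -0.01 for all, and its distance from the median of all transcripts was 0.53 with TMM, 0.45 in TPM and 0.63 in copy numbers. Of the 36 called transcripts, 23 kept their direction under all 5 scalings. The split was 33 up and 2 down by DESeq2, 26 and 4 in TPM and 41 and 0 in copy numbers, but 7 and 4 by the spike-ins. For all transcripts it was 3373 up and 3255 down by DESeq2 and 2677 and 4045 in TPM. In copy numbers it was 5497 and 789, and by the spike-ins 1094 and 4275. These totals are also the background for the splits of groups from ENR to EN below. Between CV and ENR, which differ in the added compounds, 23 Rab transcripts were higher in CV and 7 lower. Of all transcripts, 60.0% were called, 30.2% higher and 29.8% lower. The median Rab transcript changed by 0.25 against -0.01 for all. There the split of Rab transcripts was 22 to 8 by DESeq2, 7 to 4 by the spike-ins, 27 to 4 in TPM and 12 to 2 in copy numbers. For all transcripts it was 2589 to 2833, 1039 to 1597, 3713 to 1895 and 1409 to 461 in the same order. These 3 comparisons share libraries and are not independent. In bulk RNA, a lower level can come from fewer cells of a type or from less RNA per cell, which cannot be told apart.

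**Figure D1:**
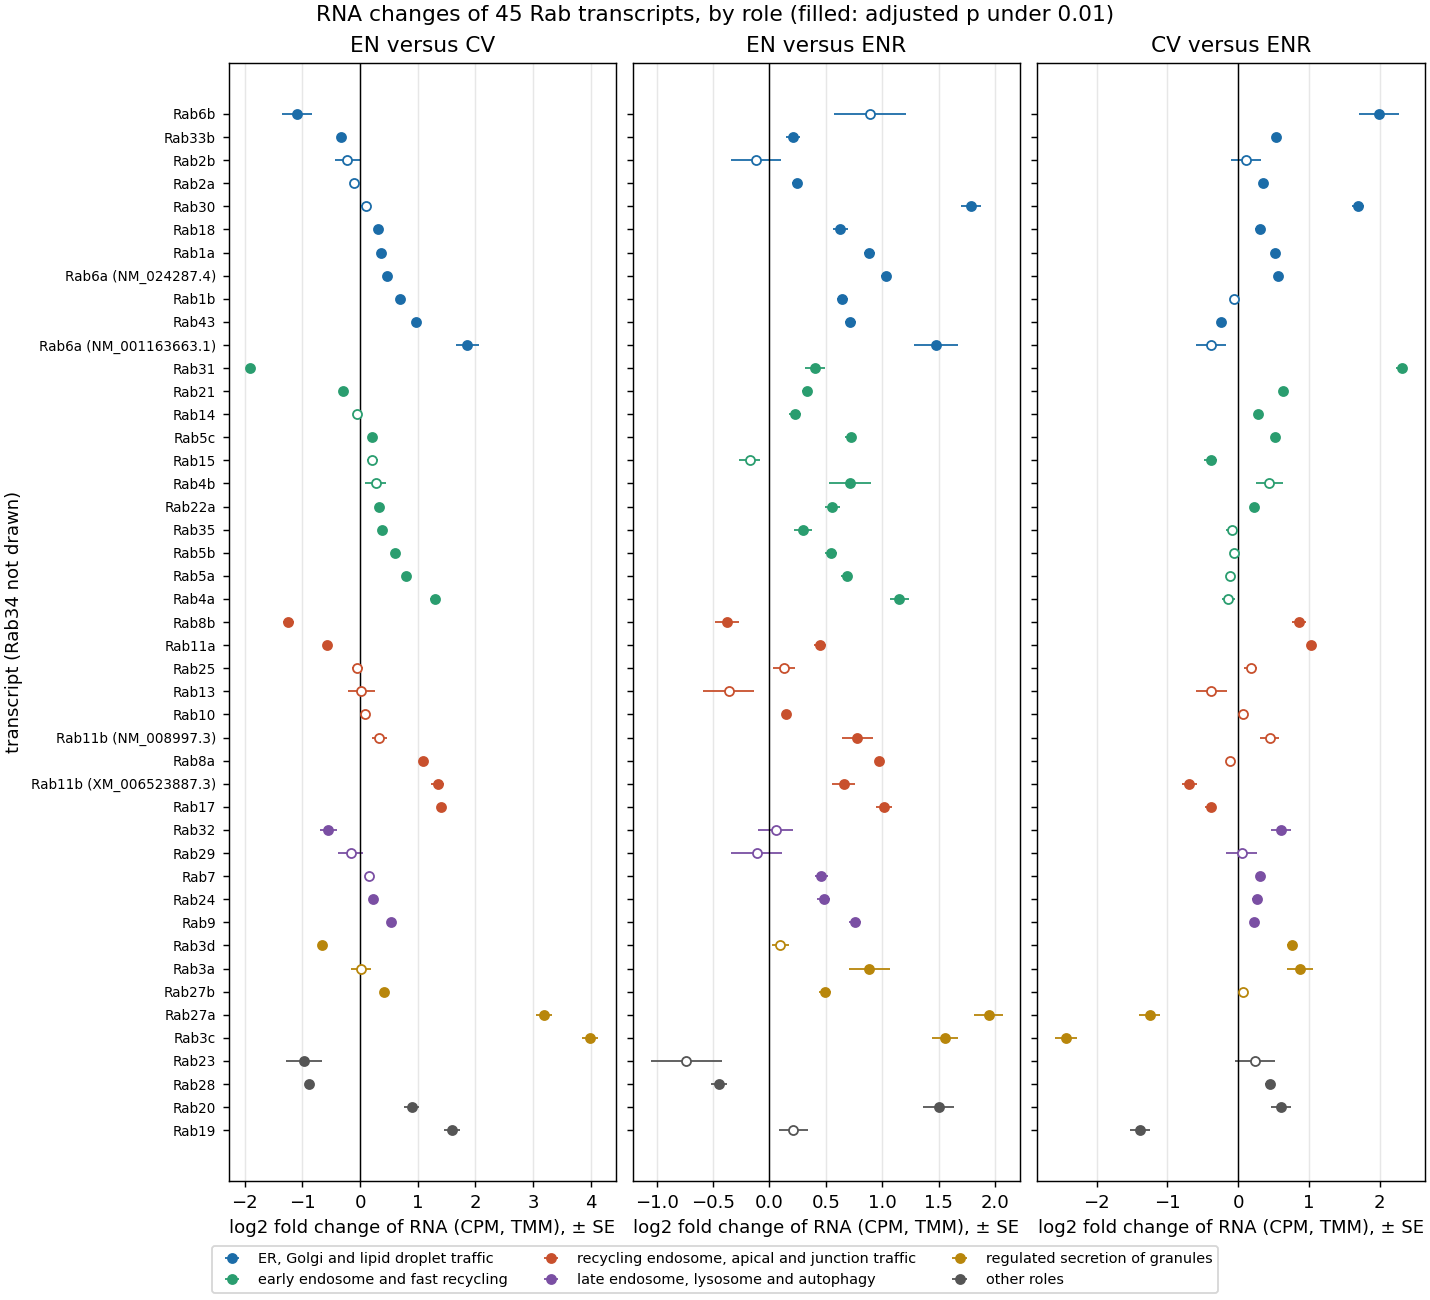
Log2 fold change of Rab transcripts (TMM, edgeR) in EN versus CV, EN versus ENR and CV versus ENR, with transcripts grouped by the step of traffic they serve. Each point is 1 transcript, bars are standard errors from 4 libraries per culture, and filled points passed an adjusted p of 0.01. Rab34, with no reads in EN, is not drawn. Rab3c and Rab27a lie farthest right in EN versus CV, at 3.99 and 3.19, and Rab31 farthest left at -1.90.

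Rabs of granule secretion had the largest rises from CV to EN. Rab3c, which acts in the docking of secretory vesicles in neurons and endocrine cells, measured 1.75, 1.60, 1.99 and 1.20 CPM in CV, 9.09, 9.16, 9.26 and 8.05 in ENR, and 26.1, 29.1, 23.4 and 26.1 in EN. The cultures did not overlap, and the order was CV, ENR, EN. The log2 change from CV to EN was 3.99 ± 0.14 (SE, edgeR adjusted p = 5.84e-13) and from ENR to EN 1.56 ± 0.11 (adjusted p = 4.36e-09). Rab27a, which docks granules at the plasma membrane and recruits synaptotagmin-like proteins, followed the same order, with 2.96, 2.67, 3.31 and 3.01 CPM in CV, 8.32, 5.56, 8.20 and 6.42 in ENR, and 26.0, 26.1, 29.3 and 28.5 in EN. Its cultures did not overlap either, and it rose by 3.19 ± 0.14 from CV to EN (edgeR adjusted p = 6.38e-12) and by 1.94 ± 0.12 from ENR to EN (adjusted p = 9.01e-10). Both kept their direction in each comparison under all 5 scalings.

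Their close relatives moved less or the other way. Rab27b, the paralogue of Rab27a in secretory epithelia, had 48.5, 51.3, 48.6 and 47.8 CPM in CV, 43.4, 47.3, 47.4 and 48.3 in ENR, and 68.1, 66.6, 63.1 and 63.6 in EN. CV and ENR overlapped, and EN was above both, with a log2 change of 0.41 ± 0.05 from CV (edgeR adjusted p = 1.79e-06) that was -0.00156 with the spike-ins. Rab3d, found on zymogen and mucin granules, measured 100.5, 101, 94.4 and 115 CPM in CV and was lower in both other cultures, at 59.2, 61.4, 56.6 and 66.3 in ENR and 60.6, 64.0, 71.2 and 65.2 in EN. It fell by 0.66 ± 0.07 from CV to EN (edgeR adjusted p = 3.12e-07), a change of 0.10 in copy numbers that did not pass (limma adjusted p = 0.695). Rab3a, the main synaptic vesicle member, had its lowest values in ENR, at 3.64 to 4.91 CPM, against 6.36 to 9.64 in CV and 6.57 to 9.28 in EN, and CV and EN overlapped.

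Markers of the secretory cell types moved with these genes. Summed over 8 enteroendocrine markers, of 16 on the list, the level was 99.3 to 130 TPM in CV, 919 to 993 in ENR and 2729 to 3265 in EN, and 7 of the 8 transcripts rose from CV to EN. Of 10 goblet cell transcripts 9 rose, with summed levels of 1762 to 1891, 3214 to 3413 and 11028 to 13176 TPM in the same order, and Clca1 had a transcript at 0 in CV and ENR. Paneth cell transcripts went the other way, with 2 of 8 up and 6 down and sums of 9849 to 10978, 25636 to 27671 and 6650 to 7157 TPM. The part of these cell types in the change of Rab3c and Rab27a was not tested.

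In apical delivery and recycling, close paralogues changed in opposite directions from CV to EN. Rab8a, which carries apical proteins to the brush border of enterocytes, measured 148, 151, 149 and 144 CPM in CV, 156, 153, 162 and 168 in ENR, and 304, 305, 320 and 326 in EN. EN was above both other cultures without overlap, by 1.08 ± 0.04 over CV (edgeR adjusted p = 5.95e-13) and 0.97 ± 0.04 over ENR (adjusted p = 2.55e-12), a direction kept under all 5 scalings. Rab8b, its paralogue, measured 39.4, 39.8, 36.9 and 41.1 CPM in CV, 23.8, 17.5, 25.5 and 19.4 in ENR, and 16.4, 16.5, 17.5 and 16.1 in EN. Here CV stood above the rest, and Rab8b fell by 1.24 ± 0.10 from CV to EN (edgeR adjusted p = 1.55e-08). Its fall of 0.38 from ENR to EN was a change of 0.59 in copy numbers that did not pass (limma adjusted p = 0.0150).

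Rab17, an epithelial Rab of polarised transport, rose in the same way as Rab8a, from 34.2, 38.3, 36.7 and 40.7 CPM in CV and 49.6, 45.5, 50.1 and 51.3 in ENR to 111, 96.6, 99.2 and 89.8 in EN. The cultures did not overlap, and the change from CV to EN was 1.40 ± 0.07 (edgeR adjusted p = 4.42e-11). Markers of enterocytes, the absorptive cells, rose beside these genes, with 13 of 14 transcripts up and summed levels of 20509 to 21598 TPM in CV, 11252 to 12999 in ENR and 61549 to 68613 in EN, and their part in the changes of Rab8a and Rab17 was not tested.

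The Rab11 group runs the recycling endosome below the apical membrane. Rab11a, its most abundant form in CV, measured 178, 185, 191 and 177 CPM in CV, 84.8, 96.4, 87.2 and 91.5 in ENR, and 113, 121, 132 and 125 in EN. CV was above both other cultures, by 1.02 ± 0.05 over ENR (edgeR adjusted p = 1.87e-10) and by 0.57 ± 0.05 over EN (adjusted p = 4.08e-08). In copy numbers the change of Rab11a from CV to EN was 0.22 and did not pass (limma adjusted p = 0.426). From ENR to EN Rab11a rose by 0.45 ± 0.05 (edgeR adjusted p = 1.63e-06). The more abundant Rab11b transcript XM_006523887.3 moved the other way from CV to EN. It measured 16.3, 11.4, 14.6 and 14.6 CPM in CV, 23.3, 25, 20.8 and 22.5 in ENR, and 41.4, 32.8, 35.3 and 34.5 in EN. Its rise was 1.35 ± 0.11 from CV (edgeR adjusted p = 1.19e-08) and, in the same direction as Rab11a, 0.66 ± 0.10 from ENR (adjusted p = 2.93e-05). The second Rab11b transcript, NM_008997.3, did not pass the test between EN and CV (0.33 ± 0.13, edgeR adjusted p = 0.0315), and how reads were divided between the 2 transcripts was estimated by the quantification software. With both summed, Rab11b rose by 0.91 ± 0.07 from CV to EN. Rab25 had 55.4 to 79.9 CPM in CV, 52.0 to 65.8 in ENR and 61.2 to 69.0 in EN, overlapping ranges with no call in any comparison. Rab10 and Rab13, which serve basolateral delivery and tight junctions, also had no call from CV to EN, at 0.08 and 0.02.

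**Figure D2:**
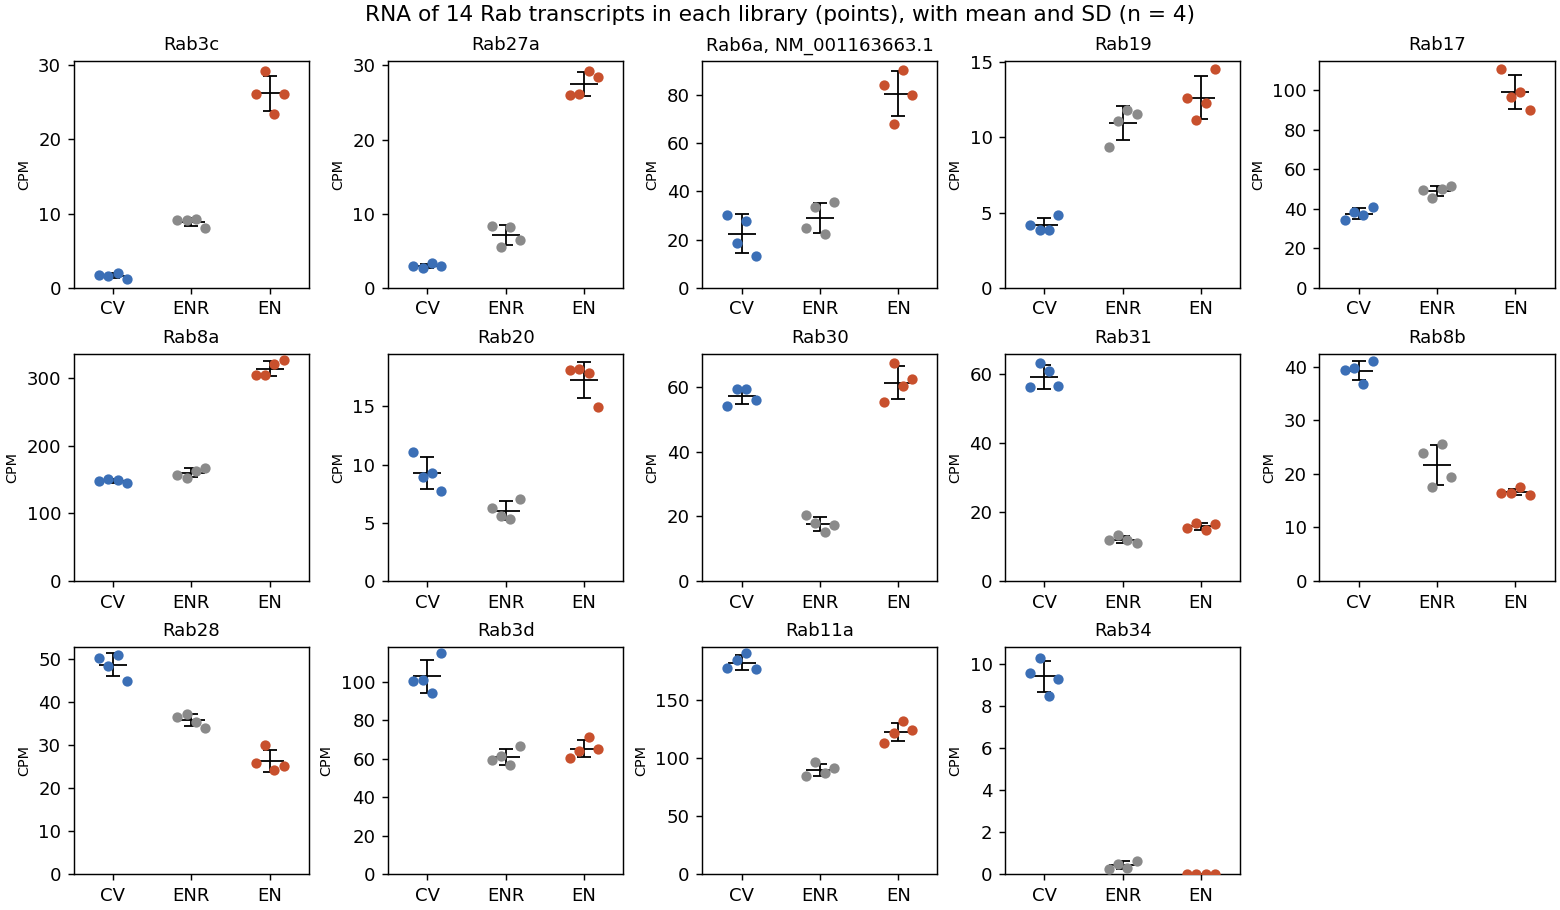
TMM-scaled CPM on linear axes for 14 Rab transcripts in each of the 12 RNA-seq libraries, with 4 points per culture. Rab3c and Rab27a climb from CV through ENR to EN, Rab8a stands apart in EN at 304 to 326 CPM, and Rab31 stands apart in CV at 56.2 to 63.3 CPM.

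Among the 11 transcripts of ER, Golgi and lipid droplet traffic, 6 rose from CV to EN, 2 fell and 3 did not pass, with a median of 0.32, where 35.2% of all transcripts were called higher and 41.2% lower. The split was 2 up and 3 down with the spike-ins, 4 to 3 in TPM and 7 to 0 in copy numbers. From ENR to EN 9 rose and 0 fell, beside 35.5% and 37.2% of all transcripts, with a median of 0.72, and with the spike-ins 3 rose and 0 fell. Rab6a, which drives vesicles from the Golgi and back to the ER, rose in both of its transcripts. NM_001163663.1 measured 30.2, 18.6, 27.8 and 13.0 CPM in CV, 25, 33.4, 22.5 and 35.4 in ENR, and 84.0, 67.9, 90.1 and 79.8 in EN, and NM_024287.4 measured 151 to 170, 106 to 114 and 212 to 238. EN was above both other cultures for each, and the sum of the 2 rose by 0.73 ± 0.04 from CV and by 1.13 from ENR. The neuronal paralogue Rab6b was low in every culture and highest in CV, at 1.99 to 2.54 CPM in CV, 0.491 to 0.629 in ENR and 0.864 to 1.25 in EN. It fell by 1.09 from CV to EN (edgeR adjusted p = 0.00127) and was higher in CV than in ENR by 1.98 (adjusted p = 1.56e-05). Rab1a and Rab1b, needed for transport from the ER to the Golgi, rose by 0.37 and 0.70 from CV to EN, Rab43, a Golgi Rab, by 0.97, and Rab18, of lipid droplets and the ER, by 0.32. The changes of Rab1a and Rab18 were -0.04 and -0.09 with the spike-ins, while Rab1b and Rab43 kept their direction under all 5 scalings.

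Rab30, a Golgi Rab, set ENR apart from the other 2 cultures. It measured 54.2, 59.4, 59.5 and 56.2 CPM in CV, 20.5, 18, 15.2 and 17.2 in ENR, and 55.4, 67.7, 60.3 and 62.6 in EN. CV and EN overlapped (0.10 ± 0.07, edgeR adjusted p = 0.242), and both were above ENR without overlap, by 1.69 ± 0.08 for CV (adjusted p = 1.68e-10) and 1.78 ± 0.09 for EN (adjusted p = 2.56e-11). Its direction against ENR held under all 5 scalings.

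Rabs of the early endosome and of fast recycling rose in 6 of 11 cases from CV to EN, fell in 2 and did not pass in 3, with a median of 0.27, beside the 35.2% and 41.2% of all transcripts called higher and lower. The split was 1 up and 2 down with the spike-ins, 3 to 3 in TPM and 9 to 1 in copy numbers. From ENR to EN 10 of 11 rose, beside 35.5% of all transcripts, but 1 rose and 1 fell with the spike-ins. Rab5a, which drives the fusion of endocytic vesicles with early endosomes, measured 107, 116, 112 and 110 CPM in CV, 118, 128, 117 and 120 in ENR, and 181, 195, 194 and 206 in EN, all above the other cultures, with a rise of 0.80 ± 0.05 from CV (edgeR adjusted p = 2.05e-10). Rab5b rose by 0.60 and Rab5c by 0.20, and the change of Rab5c was -0.22 with the spike-ins and -0.12 in TPM. Rab4a, of the rapid recycling route, rose from 15.0 to 19.0 CPM in CV and 17.3 to 20.1 in ENR to 38.7 to 45.4 in EN, by 1.29 from CV.

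Rab31, which carries cargo between the Golgi and endosomes, had the largest fall of this group. It measured 56.2, 63.3, 60.8 and 56.8 CPM in CV, 11.8, 13.3, 12 and 11 in ENR, and 15.3, 16.9, 14.8 and 16.4 in EN. CV stood far above both other cultures, with a log2 change of -1.90 ± 0.07 from CV to EN (edgeR adjusted p = 1.47e-12) and 2.31 ± 0.07 for CV over ENR (adjusted p = 1.38e-12). Rab21, which recycles integrins, also fell from CV to EN, by 0.29, a change of 0.51 in copy numbers.

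Late endosomal, lysosomal and autophagic Rabs were split from CV to EN, with 2 of 6 transcripts up, 2 down and 2 without a call and a median of -0.01, beside the 35.2% and 41.2% of all transcripts. Rab9, of retrograde transport to the Golgi, rose from 61.6 to 71.7 CPM in CV to 91.9 to 101 in EN, by 0.53, while Rab7, the main late endosomal Rab, did not pass (0.15, edgeR adjusted p = 0.0158). Rab34, linked to lysosome positioning and to primary cilia, was read almost only in CV. It had 71, 77, 64 and 77 reads in CV, 2, 3, 2 and 5 in ENR, and 0 in each EN library. Set against 3 reads in the shallowest EN library, its lowest CV value was at least 13.2-fold higher than in EN, and over the libraries it was 22.3-fold higher in CV than in ENR (95% interval 12.6 to 43.6, counting error only). Its fall was called in edgeR's test from CV to EN (adjusted p = 1.87e-09) and from ENR to EN (adjusted p = 2.31e-04), where no fold is given because ENR had so few reads.

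The 4 Rabs placed on none of these routes were all called from CV to EN, beside 76.4% of all transcripts. Rab19 rose from 4.18, 3.87, 3.84 and 4.82 CPM in CV to 12.6, 11.1, 12.3 and 14.5 in EN, by 1.60 ± 0.14 (edgeR adjusted p = 2.75e-08), and ENR, at 9.35 to 11.8, overlapped EN. Rab20, of phagosomes and endosomes, rose from 11, 8.94, 9.28 and 7.71 CPM in CV and 6.27, 5.56, 5.31 and 7.05 in ENR to 18.1, 18.2, 17.8 and 15.0 in EN, by 1.5 ± 0.14 over ENR (edgeR adjusted p = 6.68e-08). Rab20 was highest in EN, while Rab19 did not pass between EN and ENR (0.21, edgeR adjusted p = 0.134). Both rose from CV to EN, as opposed to Rab28 and Rab23, which are linked to cilia. Rab28 had 50.3, 48.3, 51.0 and 44.9 CPM in CV, 36.6, 37.1, 35.2 and 34 in ENR and 25.9, 30.0, 24.3 and 25.2 in EN, a fall of 0.89 ± 0.07 from CV to EN (edgeR adjusted p = 9.57e-09). Its fall of 0.45 from ENR to EN was a change of 0.55 in copy numbers that did not pass (limma adjusted p = 0.0425). Rab23 fell by 0.98 at values of 0.857 to 3.34 CPM.

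Stem cell markers also fell from CV to EN. All 11 transcripts of 10 stem cell genes fell from CV to EN, with summed levels of 425 to 472 TPM in CV and 26.2 to 29.5 in EN, where Tnfrsf19 was at 0. The sum was higher in ENR, at 1152 to 1240 TPM, than in CV, which the labels call stem cell-enriched, and Olfm4 alone averaged 708 TPM in ENR against 7.04 in CV, whereas Lgr5 averaged 40.2 TPM in ENR, 31.3 in CV and 0.514 in EN. Tuft cell markers rose in 5 of 6 transcripts and fell in 1 (34 to 38.1 TPM in CV, 40.3 to 41.0 in ENR and 67.3 to 90.9 in EN). Of 5 fibroblast, immune and endothelial transcripts 2 rose, with summed levels of 2.75 to 3.58, 6.45 to 7.76 and 16.3 to 20.7 TPM and Cd3e at 0 throughout. The part of any of these cell types in the Rab changes was not tested.

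Shares within a family of paralogues compare genes inside each library and do not depend on the scaling between libraries. Of 17 transcripts in 6 families, compared in 3 contrasts, 37 of 51 comparisons of shares had no overlap between cultures, each with an exact two-sided permutation p of 0.0286, the smallest that 4 against 4 libraries allow. Shares of 1 family add up to the whole, so these comparisons are not independent, and their p-values were not adjusted. No such count was made for other gene families, so it is not shown to be particular to Rabs. Rab27a made up 13.0% ± 1.16 of the Rab27 level in CV, 27.3% ± 4.46 in ENR and 50.8% ± 2.42 in EN (SD, n = 4), so that Rab27b went from the dominant form to about an equal one. Rab8b made up 9.60% ± 0.506 of the Rab8 level in CV, 5.11% ± 0.838 in ENR and 2.08% ± 0.0960 in EN. Within the Rab3 family, Rab3c went from 0.588% in CV to 5.05% in ENR and 11.7% in EN and Rab3d from 82.5% to 79.7% and 66.5%, and Rab3d stayed the most abundant member.

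Rab11a held 49.6% ± 3.52 of the Rab11 and Rab25 level in CV, 33.6% ± 1.48 in ENR and 36.9% ± 1.14 in EN, so CV was the only culture in which its mean share exceeded that of Rab25, which it did in 3 of the 4 CV libraries. Rab25 held 44.1%, 54.2% and 47.5%, and its shares in EN and CV overlapped (exact permutation p = 0.171, n = 4 each). The Rab5 family had the smallest shift of mean shares between ENR and EN among the 6 families. Rab5a held 32.0% in CV, 39.6% in ENR and 39.9% in EN, and Rab5c 52.3%, 41.7% and 43.0%. Among Rab6 transcripts, NM_001163663.1 took 12.1% in CV, 20.9% in ENR and 26.4% in EN, with no overlap between CV and EN.

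**Figure D3:**
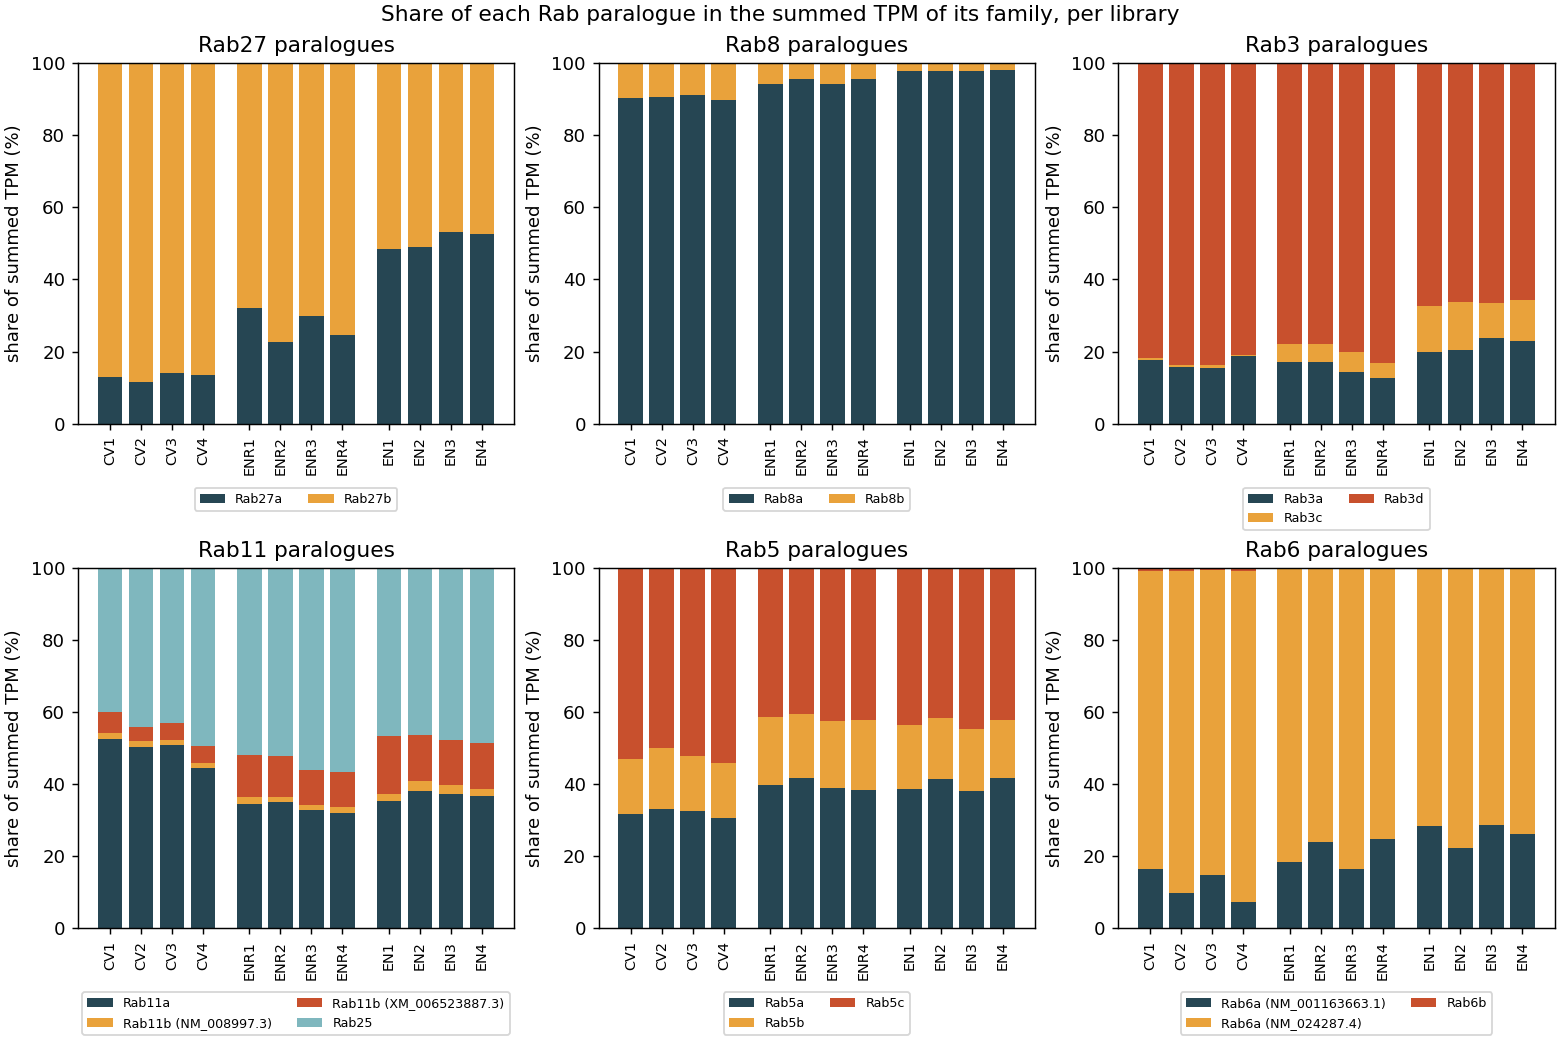
Share of each paralogue or transcript in the summed TPM of its family, in percent, with 1 stacked bar per RNA-seq library. Rab27a grows from 11.5 to 14.2% of the Rab27 level in CV libraries to 48.4 to 53.2% in EN libraries, and Rab8b shrinks from 8.99 to 10.2% to 1.94 to 2.14%.

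The proteins that load, switch and read Rabs were looked at through 4 lists, of which 123 of 156 genes were measured. Of their 128 transcripts 102 were called from CV to EN, 65 up and 37 down. Of all transcripts, 76.4% were called, 35.2% higher and 41.2% lower. The split was 66 to 32 by DESeq2, 80 to 10 in copy numbers, 41 to 55 in TPM and 26 to 44 with the spike-ins. All 8 genes of prenylation and membrane recycling were called, 5 up and 3 down, and with the spike-ins 0 were up and 3 down. Rabggtb, a subunit of the transferase that attaches the lipid tails, fell by 0.84 ± 0.06, and Chm, an escort protein for the same enzyme, fell by 0.36 while its retrogene Chml rose by 0.88. Rabac1, a Rab acceptor of the Golgi, fell by 0.63. In copy numbers the change of Chm was 0.40 and that of Rabac1 0.15, and neither passed there (limma adjusted p = 0.138 and 0.630). Rabif rose by 0.53.

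Exchange factors split evenly, with 11 of 31 transcripts up and 11 down and a median of 0.03, beside 35.2% of all transcripts called higher and 41.2% lower. The split was 6 to 12 with the spike-ins, 9 to 17 in TPM and 17 to 2 in copy numbers. Dennd4a, an exchange factor for Rab10, fell from 9.40 to 15.0 CPM in CV to 3.00 to 3.57 in EN, by 2.03 ± 0.22, and Ankrd27, an exchange factor for Rab21, by 1.06 ± 0.05. Als2cl rose by 1.41, Dennd5b by 1.37 and Dennd3 by 1.35, while Rin1, an exchange factor for Rab5, fell by 0.95. Of GTPase activating proteins, 19 of 33 were up and 10 down with TMM, with a median of 0.44, beside the same 35.2% and 41.2%, but 5 were up and 11 down with the spike-ins, 11 and 14 in TPM and 22 and 4 in copy numbers. Tbc1d4, which acts on Rab8, Rab10 and Rab14 in the traffic of glucose transporters, measured 39.5 to 41.4 CPM in CV, 23.9 to 29.8 in ENR and 2.95 to 4.75 in EN. The cultures did not overlap, and it fell by 3.44 ± 0.12 from CV to EN (edgeR adjusted p = 4.51e-13). Its relative Tbc1d1 fell by 1.55 and Evi5l by 3.01, whereas Tbc1d24, Tbc1d14 and Tbc1d13 rose by 1.40, 1.35 and 1.29.

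Effectors rose in 30 of 56 transcripts, fell in 13 and did not pass in 13, with a median of 0.32, beside the 35.2% and 41.2% of all transcripts called higher and lower. The split was 15 up and 18 down with the spike-ins, 20 to 20 in TPM and 36 to 4 in copy numbers. Sytl2, a synaptotagmin-like effector of Rab27, measured 8.49, 6.94, 5.04 and 7.11 CPM in CV, 15.6, 18.2, 14.3 and 15.4 in ENR, and 36.6, 38.1, 38.7 and 41.7 in EN. It had the order CV, ENR, EN without overlap, as Rab27a did, and rose by 2.49 ± 0.12 from CV to EN (edgeR adjusted p = 3.23e-11). Rilp, an effector of Rab7 and Rab34 that links lysosomes to dynein, rose from 0.539 to 1.08 CPM in CV, between 4 and 9 reads per library, to 8.74 to 11.3 in EN, by 3.63 ± 0.24 (adjusted p = 9.92e-10). Rab11fip3, an effector of Rab11, rose from 18.2 to 24.9 CPM in CV to 71.9 to 89.3 in EN, by 1.91 ± 0.10. Bicd1, a dynein adaptor bound by Rab6, fell from 36.0 to 44.1 CPM in CV to 4.03 to 7.85 in ENR and 2.28 to 3.03 in EN, by 3.89 ± 0.17 from CV to EN (adjusted p = 7.54e-12), and Myo5a, a myosin recruited by Rab27a and other Rabs, by 3.08 ± 0.16. Both had CV far above ENR and EN. Rufy2 fell by 1.70.

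Chromatin was read at 50 regions of the authors' union of peaks that lay within 500 bp of an annotated start site of 41 of the 44 genes. Rab3c, Rab8b and Rab23 had no such region. The values are read counts that the authors normalized and rounded, called scores here, and regions were tested with limma on log2(score + 1), with calls at an adjusted p of 0.05. From CV to EN, ATAC was called at 19 of the 50 regions (38%), beside 34.6% of all regions near start sites, with 14 higher, beside 19.1%, and 5 lower. The median Rab region changed by 0.24 against 0.01 for all regions near start sites. H3K27ac, a mark of active promoters and enhancers, was called at 16 regions, beside 20.6%, with 15 higher, beside 16.9%, and 1 lower and a median of 0.65 against 0.19. H3K4me3, the mark of active start sites, was called at 3 regions, beside 10.0%, all higher, where 4.44% of all regions near start sites were. H3K27me3, a mark of Polycomb repression, was called by limma at 0 regions, beside 0.345%, with 3 at an unadjusted p under 0.05 and 1 called without CV library 2.

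The H3K27ac count rested on how the spread was modelled. It was 1 when 1 spread was fitted for weak and strong regions alike and 8 after quantile normalization, and it was 10, 8 and 9 without EN libraries 2, 3 and 4. The H3K4me3 count was 1 without CV library 2, CV library 4 or EN library 2 and 10 without EN library 1. Against ENR, EN was called in ATAC at 12 regions, beside 19.5%, with 10 higher, beside 9.83%. It was called in H3K27ac at 4, beside 3.93%, and in H3K4me3 at 3, beside 5.79%, all of them higher, beside 2.54% and 3.37%. CV differed from ENR in ATAC at 8 regions, beside 14.8%, with 1 higher in CV, beside 5.89%, and 7 lower, and in H3K27ac at 1, that of Rab11b, beside 7.53%.

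The start of Rab8a is shown because its RNA and its open chromatin rose together in the most abundant apical Rab. The 300 bases run from 250 before to 50 after the start site on the plus strand of chr8:74684849-74685148 (mm9), with the letters CCAAT, the core bound by NF-Y, in capitals.
Rab8a: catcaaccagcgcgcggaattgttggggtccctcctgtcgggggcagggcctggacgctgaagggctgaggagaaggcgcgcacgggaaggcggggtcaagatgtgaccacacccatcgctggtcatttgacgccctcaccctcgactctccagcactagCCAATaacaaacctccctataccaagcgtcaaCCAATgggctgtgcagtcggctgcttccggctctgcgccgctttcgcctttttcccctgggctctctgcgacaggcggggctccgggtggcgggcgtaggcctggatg
The ATAC score of the region over this start, chr8:74684673-74686190, was 225, 228, 229 and 213 in CV, 331, 299, 255 and 302 in ENR, and 452, 420, 405 and 399 in EN. The cultures did not overlap, and the score rose by 0.90 ± 0.08 from CV to EN (limma adjusted p = 2.07e-07). H3K27ac there went from 54, 82 and 71 in CV to 128, 100 and 139 in EN, which did not pass (0.82, limma adjusted p = 0.0687).

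Both ATAC and H3K27ac were called from CV to EN at 9 Rab regions, and both were higher in EN at 8 of them. Rab24, an atypical Rab of autophagy, is shown because its start carries the letters TCACGTGA, bound by the lysosomal regulators TFEB and TFE3, within the first transcribed bases. Its window is the minus strand of chr13:55423292-55423591 (mm9), with those letters, which begin 1 base after the start site, in capitals.
Rab24: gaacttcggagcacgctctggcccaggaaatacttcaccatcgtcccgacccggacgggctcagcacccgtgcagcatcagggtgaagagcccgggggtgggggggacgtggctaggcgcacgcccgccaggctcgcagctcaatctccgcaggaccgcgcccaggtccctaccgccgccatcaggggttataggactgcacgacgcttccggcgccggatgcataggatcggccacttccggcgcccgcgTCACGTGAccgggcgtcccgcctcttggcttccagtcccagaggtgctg
The region chr13:55422561-55424551 had ATAC scores of 41, 44, 35 and 43 in CV, 55, 71, 41 and 69 in ENR, and 75, 92, 58 and 85 in EN, and EN was above CV without overlap (0.90 ± 0.18, limma adjusted p = 6.09e-04). H3K27ac scores were 94, 115 and 119 in CV, 183, 129 and 123 in ENR, and 224, 287 and 278 in EN, a rise of 1.26 ± 0.20 from CV (limma adjusted p = 9.52e-05). The RNA of Rab24 rose by 0.22 from CV to EN, a change of -0.20 with the spike-ins and -0.10 in TPM.

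Rab5a is shown because its start holds 3 of the searched motifs and its region was called in both assays. The window is the plus strand of chr17:53618309-53618608 (mm9), and the capitals mark, from left to right, CCAAT on the other strand, TCACGTGA at 96 bases before the start site and TGACGTCA, the element bound by CREB and ATF factors, at 28 bases before it.
Rab5a: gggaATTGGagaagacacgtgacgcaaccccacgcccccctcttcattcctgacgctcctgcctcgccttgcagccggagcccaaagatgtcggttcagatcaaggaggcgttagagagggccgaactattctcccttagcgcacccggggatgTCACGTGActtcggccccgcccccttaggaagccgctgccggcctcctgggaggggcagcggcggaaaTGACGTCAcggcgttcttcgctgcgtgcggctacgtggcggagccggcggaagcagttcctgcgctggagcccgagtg
Its ATAC score was 321, 284, 300 and 267 in CV, 378, 359, 375 and 369 in ENR, and 370, 405, 444 and 400 in EN. EN and ENR overlapped, both were above CV, and the rise from CV to EN was 0.47 ± 0.08 (limma adjusted p = 1.03e-04). H3K27ac rose by 0.65 ± 0.19 (limma adjusted p = 0.0367), a change of -0.06 after quantile normalization.

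Rab30 had regions at 2 start sites. The region at its far downstream start, chr7:99968050-99968476, scored 7, 9, 12 and 13 in ATAC in CV, 13, 13, 12 and 9 in ENR, and 22, 28, 31 and 43 in EN, a rise of 1.5 ± 0.24 from CV (limma adjusted p = 7.27e-05). EN stood above both other cultures, and the same held for H3K27ac, at 2, 8 and 16 in CV, 7, 10 and 6 in ENR and 42, 30 and 29 in EN, and for H3K4me3, at 1, 2 and 1, 2, 1 and 1, and 4, 7 and 8. The region at its main start scored 262 to 313 in CV and 332 to 377 in EN in ATAC, a rise of 0.32 that was -0.07 after quantile normalization. The RNA of Rab30 did not differ between CV and EN by more than the libraries' spread, as given above, so chromatin and RNA separated the cultures differently.

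Rab20 gained H3K27ac in step with its RNA. The scores were 73, 96 and 68 in CV, 72, 64 and 46 in ENR, and 243, 202 and 192 in EN, a rise of 1.42 ± 0.25 from CV (limma adjusted p = 3.12e-04), with H3K4me3 up by 0.47. At Rab9 they were 70, 69 and 49 in CV, 102, 95 and 116 in ENR, and 200, 184 and 219 in EN, a rise of 1.68 ± 0.24 from CV (limma adjusted p = 1.25e-05). EN was above both other cultures at each gene.

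At other genes, chromatin and RNA went apart. Rab11a lost RNA from CV to EN, yet its H3K27ac scores were 126, 120 and 144 in CV and 237, 230 and 238 in EN, a rise of 0.85 ± 0.18 (limma adjusted p = 0.00188), while its ATAC score fell by 0.37. Rab2a had ATAC scores of 127, 136, 126 and 94 in CV and 181, 245, 259 and 244 in EN, a rise of 0.94 ± 0.13 (limma adjusted p = 1.30e-05), with no call in RNA (-0.11). Rab15, an endosomal Rab, had H3K27ac scores of 24, 20 and 25 in CV and 3, 5 and 2 in EN at chr12:77922938-77923840, a fall of 2.52 ± 0.55 (limma adjusted p = 0.00301), again with no call in RNA. The only region near the start of Rab27a, chr9:72892007-72892235, did not cover the start site at 72892672, so the start itself was not read. That region scored 4 to 12 in every culture in ATAC and 0 to 4 in H3K27ac. It was not called, while the RNA of Rab27a rose the second most. At Rab34, ATAC was 9, 10, 11 and 6 in CV, 5, 5, 5 and 3 in ENR, and 4, 6, 5 and 2 in EN, a fall of 0.97 ± 0.31 (limma adjusted p = 0.0186) in which CV and EN met at 6.

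A short region near the start of Rab25 is shown because it had the largest fall of the 5 regions called lower in ATAC, while its RNA was not called. The whole region, chr3:88352174-88352358 (mm9), is given on the plus strand, opposite to the gene, with TGACGTCA in capitals.
Rab25: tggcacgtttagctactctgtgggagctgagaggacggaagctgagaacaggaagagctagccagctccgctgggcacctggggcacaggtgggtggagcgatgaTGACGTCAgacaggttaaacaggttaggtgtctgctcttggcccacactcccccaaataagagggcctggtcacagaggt
Its ATAC scores were 12, 14, 15 and 16 in CV, 12, 11, 12 and 14 in ENR, and 4, 3, 5 and 6 in EN. EN was below both other cultures without overlap, by 1.5 ± 0.23 below CV on the log2 scale (limma adjusted p = 5.36e-05).

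**Figure D4:**
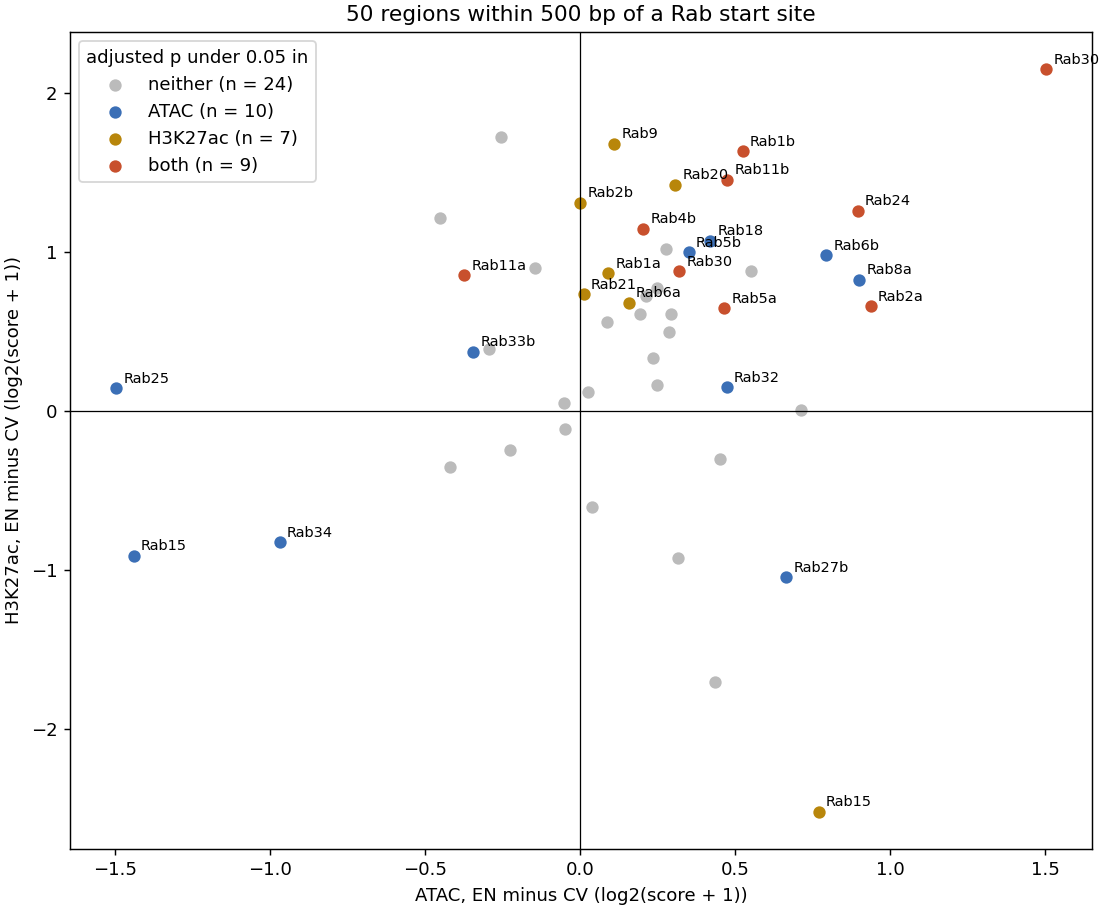
Change in ATAC score between CV and EN, on the log2 scale (horizontal), and H3K27ac score (vertical) at 50 regions within 500 bp of Rab start sites, coloured by which assay passed a limma adjusted p of 0.05. Both passed at 9 regions, 8 of them in the upper right, and Rab11a was higher in H3K27ac and lower in ATAC.

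Across the 41 genes with a region, RNA and chromatin changes from CV to EN were weakly related, with a Pearson r of 0.30 for ATAC (Spearman 0.13), 0.26 for H3K27ac (0.25) and 0.28 for H3K4me3 (0.37). Without Rab34 these were -0.07, 0.07 and 0.33 over 40 genes. They are given as a description across genes, which are not replicates.

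Hnf4g, a nuclear receptor of enterocytes, was mapped in 1 library per culture, so its values carry no replicate check and intervals cover counting error only. Over the 50 Rab regions there were 93 of 84340 reads in regions in CV, 454 of 352600 in ENR and 4007 of 1816497 in EN. That is 1103 reads per 1000000 in CV (95% Wilson interval 900 to 1351), 1288 in ENR (1175 to 1412) and 2206 in EN (2139 to 2275). The share of reads in all regions near start sites also rose, from 35.1% in CV and 37.4% in ENR to 54.3% in EN. In EN the median Rab region had 62 reads and the median start region 37. Rab1a, with 410 reads, Rab43, with 237, Rab11b, with 224, Rab24, with 216, Rab22a, with 204, and Rab8a, with 203, had the most. These counts were not corrected for region length, which ran from 114 to 2210 bp for Rab regions. Per kb, Rab4a, at 126 reads, was above Rab22a, at 113, and Rab24, at 108.

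In all, 8 motifs were searched on both strands in the 300 bases around each annotated start, which gave 102 windows for the 44 genes among 45982 windows of all protein-coding genes. The HNF4 letters CAAAGTCCA and CAAAGGTCA occurred in 0.455% and 0.407% of all windows and in 0 Rab windows, and the TCF/LEF letters ATCAAAG in 3.09% and 0. The 300 bases around the middle of each peak region were searched as well. There ATCAAAG occurred at 2 of the 50 Rab regions, of Rab17 and Rab5c, beside 5.57% of all regions. The HNF4 letters occurred at 0 Rab regions, beside 2.28% and 2.11% of all. TCACGTGA occurred in 4 Rab windows (3.92%), at Rab21, Rab24, Rab3a and Rab5a, and in 1.15% of all windows, and TGACGTCA in 3 Rab windows (2.94%), at Rab25 and Rab5a, and in 2.13% of all. CCAAT occurred in 47 Rab windows (46.1%), of 24 genes, and in 35.7% of all windows. The CDX letters TTTATNG occurred in 10 Rab windows (9.80%), of 6 genes, and in 9.05% of all, and the E-box CATATG in 1 (0.980%), at Rab11a, and in 2.99% of all. A match is a run of letters and not a measured binding site, and windows of 1 gene overlap.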

How the data were processed

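RNA-seq, ATAC-seq and ChIPmentation libraries were grouped by culture from the sample labels. For RNA, the authors deposited expected counts and TPM values from kallisto (0.43.0 per the submitters' processing notes) for transcripts whose proteins had been quantified, and mRNA copy numbers scaled by the authors to ERCC spike-ins. Expected counts were rounded and tested with edgeR 4.0.16 (quasi-likelihood, TMM, R 4.3.3) in 1 fit of 12 libraries, for transcripts read in at least 4 libraries, and p-values were adjusted by Benjamini-Hochberg over all transcripts tested. For chromatin, the authors deposited, per region of a union of MACS2 peaks (BWA, mm9), a score, which is a normalized read count rounded to whole numbers, and, for Hnf4g, raw counts of reads. Scores were tested with limma 3.58.1 (trend) on log2(score + 1). Start sites and sequences came from the NCBIM37 (mm9) annotation and genome. Further settings were DESeq2 1.42.0, the spike-ins, and limma on TPM and copies. Shares were compared by exact permutation tests (scipy 1.17.1).

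Members and lists were chosen with earlier results of these data known, and the NF-Y, CDX and CREB motifs were added after the sequences were read. Values per library are given for the 5 largest called rises and falls in each comparison whose cultures did not overlap, at a mean of at least 20 counts, for 6 paralogue families, and for the 3 largest rises and falls of each list of regulators, of which 1 gene is not reported here. Rab4a, Rab9 and genes given by a fold change alone lie outside that rule. The correlation of same-numbered libraries lay between -0.083 and 0.112 in RNA, 0.0695 and 0.460 in ATAC and -0.0813 and 0.131 in histone marks, and in no comparison was it above 0.1 in every pair, so replicate numbers were not taken as pairs. ENR libraries of Hnf4g knockout and wild-type organoids and further histone mark libraries were not analysed here.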

Additional observations from a re-analysis of the deposited data

Results flagged for a closer look

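In 8 of 129 groups of 4 libraries, 1 library lay apart from the others by Dixon's criterion, where chance flags about 1 in 20 groups. For RNA these were Rab20 in EN, with 15.0 CPM in library 4 and 17.8 to 18.2 in the others, and Rab3c in ENR, with 8.05 CPM in library 4 and 9.09 to 9.26 in the others. For ATAC they were Rab11b in CV, with a score of 169 in library 1 and 188 to 191 in the others, and the main start of Rab30 in EN, with 332 in library 2 and 373 to 377 in the others. Low scores made up the rest. They were Rab34 in ENR (3 in library 4, 5 in the others), Rab6b in CV (12 in library 3, 15 in the others) and a weak region of Rab15, with 3 in CV library 2 against 2 and 1 in EN library 4 against 0. Each of these groups involved a different library.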

How the results depend on the processing

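With the spike-ins, 21, 11 and 11 of the 46 Rab transcripts were called in EN versus CV, EN versus ENR and CV versus ENR. Of all 9288 transcripts tested, 5765, 5369 and 2636 were called there, so a smaller share of Rab transcripts than of all passed. In copy numbers 14 Rab transcripts were called in CV versus ENR, beside 1870 of all 9288. Leaving out 1 library in turn gave 31 to 34, 33 to 36 and 29 to 31 Rab transcripts, 99 to 101 regulators, and 16 to 19 regions in ATAC, 8 to 15 in H3K27ac, 1 to 10 in H3K4me3 and 0 to 1 in H3K27me3. For H3K27ac 1 region was called without a trend, 8 after quantile normalization and 25 with a mean score of at least 10, and for H3K4me3 1, 1 and 6. A replicate block gave 32, 36 and 29 Rab transcripts, 101 regulators, 19 regions in ATAC, and 0 in H3K27ac, in H3K4me3 and in H3K27me3. In no comparison was the correlation of same-numbered libraries above 0.1 in every pair, but in ATAC every pair was positive (0.0695 to 0.460). Of the called Rab transcripts, 12 of 33, 13 of 36 and 1 of 30 turned direction under at least 1 of the 5 scalings in EN versus CV, EN versus ENR and CV versus ENR. From CV to EN these were Rab1a, Rab5c, Rab18, Rab22a, Rab24, Rab27b and Rab35 with the spike-ins, 2 of them (Rab5c and Rab24) also in TPM, and Rab3d, Rab11a, Rab21, Rab32 and Rab33b in copy numbers. From ENR to EN they were Rab2a, Rab7, Rab10, Rab11a, Rab14, Rab21, Rab24, Rab27b, Rab31, Rab33b and Rab35 with the spike-ins, Rab10 also in TPM, and Rab8b and Rab28 in copy numbers, and from ENR to CV it was Rab43 in copy numbers. For example, directions turned in copy numbers from ENR to EN for Rab8b (0.59) and Rab28 (0.55). From CV to EN they turned in copy numbers for Rab3d (0.10), Rab11a (0.22), Rabac1 (0.15) and Chm (0.40). None of these changes in copy numbers passed an adjusted p of 0.01 in limma. On that scale the median of all transcripts rose by 0.62 from CV to EN and by 0.88 from ENR to EN. Summed copy numbers ran from 498750 to 1577575 among ENR libraries. Examples with the spike-ins were Rab5c (-0.22) and Rab27b (-0.00156), and in TPM Rab5c (-0.12 with either pseudocount). After quantile normalization, directions turned for H3K27ac at Rab5a (-0.058) and Rab6a (-0.057) and for ATAC at Rab4b (-0.17) and the main start of Rab30 (-0.0725). The causes were not tested. Summing counts per gene, a setting chosen after seeing the data, gave the values of Rab6a and Rab11b above. Fits with every histone library of the labels were not run, because the table used here holds 3 per culture and mark. Depth limits Rab34, Rab6b, Rab23 and Rab3c, with few reads in some cultures.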
